A study of Mus musculus with 32 samples.

Results

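Regulatory T cells (Treg) and conventional CD4 T cells (Tconv) from the spleen of mice given carbon tetrachloride (CCl4), a liver toxin used to cause liver injury and fibrosis, were compared by RNA sequencing. The 10 libraries whose labels name spleen and CCl4 were taken, 5 of Treg and 5 of Tconv, of the 32 libraries in the series. All mice were male C57BL/6 carrying Foxp3GFP, a reporter of the Treg transcription factor, and cells were sorted as TCRb+CD4+Foxp3+ (Treg) or TCRb+CD4+Foxp3- (Tconv). Spleen libraries of control mice of the same genotype (3 Treg, 3 Tconv) and liver libraries of CCl4 mice (5 Treg, 5 Tconv) served for comparison. Neither the dose nor the duration of CCl4 is given in the sources used here, and nothing in the labels says that the libraries of a group came from separate mice. The p-values therefore measure the spread between these samples, which may be technical.

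Treg are CD4 T cells that restrain other immune cells. The transcription factor Foxp3 sets and maintains their identity, and they take up interleukin 2 through the high-affinity receptor chain CD25 while making little of it. Activated Treg in tissues express receptors such as ST2 and can release amphiregulin, a growth factor of the EGF family. Tconv hold naive cells, which recirculate between blood and lymphoid organs, and helper cells, which secrete cytokines.

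The depth of the 10 libraries was 28348107 to 62485064 estimated counts. Values below are CPM, the read count scaled to library size with TMM factors, as mean ± SD over 5 libraries unless each library is given, and fold changes are the fitted log2 of Treg over Tconv with the standard error (SE). CPM compares 1 gene between libraries and not different genes, because it is not divided by length. The first principal component of the 10 libraries held 77.4% of the variance and separated the cell types. Spearman correlations across genes were 0.9846 to 0.9911 among Treg libraries, 0.984 to 0.9921 among Tconv libraries and 0.9117 to 0.9381 between the groups. Genes are not independent replicates, so these are descriptions. Among 9248 genes with at least 5 CPM in both groups, the median coefficient of variation was 9.27% in Treg and 10.1% in Tconv.

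Foxp3, on which the sort was made, checks the labels. In Treg replicates 1 to 5 it was 1029, 974, 1042, 1164 and 1099 CPM. In Tconv replicates 1 to 5 it was 2.03, 1.68, 1.59, 1.35 and 2.39 CPM. Every Treg library was far above every Tconv library, a log2 fold change of 9.18 (SE 0.18, adjusted p = 3.21e-25), and each library matched its label. The gene lies on chromosome X at positions 7573644 to 7595245 of GRCm38.

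Of 17159 genes tested, 5731 (33.4%) differed between Treg and Tconv at an adjusted p under 0.05. Of these, 2875 (16.8% of the genes tested) were higher in Treg and 2856 (16.6%) were higher in Tconv. The balance changed with the size of the difference. Among the called genes, 1581 were more than 2-fold higher in Treg against 576 in Tconv, 781 against 252 passed 4-fold, and 421 against 147 passed 8-fold. Restricted to genes with at least 5 CPM in 1 of the groups, 746 were more than 2-fold higher in Treg and 325 in Tconv. The 5 Treg values and the 5 Tconv values did not overlap for 4297 genes (25%), 2181 with Treg above and 2116 with Tconv above. The median log2 fold change over all genes tested was 0.00, and the medians of the gene lists below are to be read against it. Counts of called members of every list below are to be read against 16.8% higher in Treg and 16.6% higher in Tconv.

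**Figure D1:**
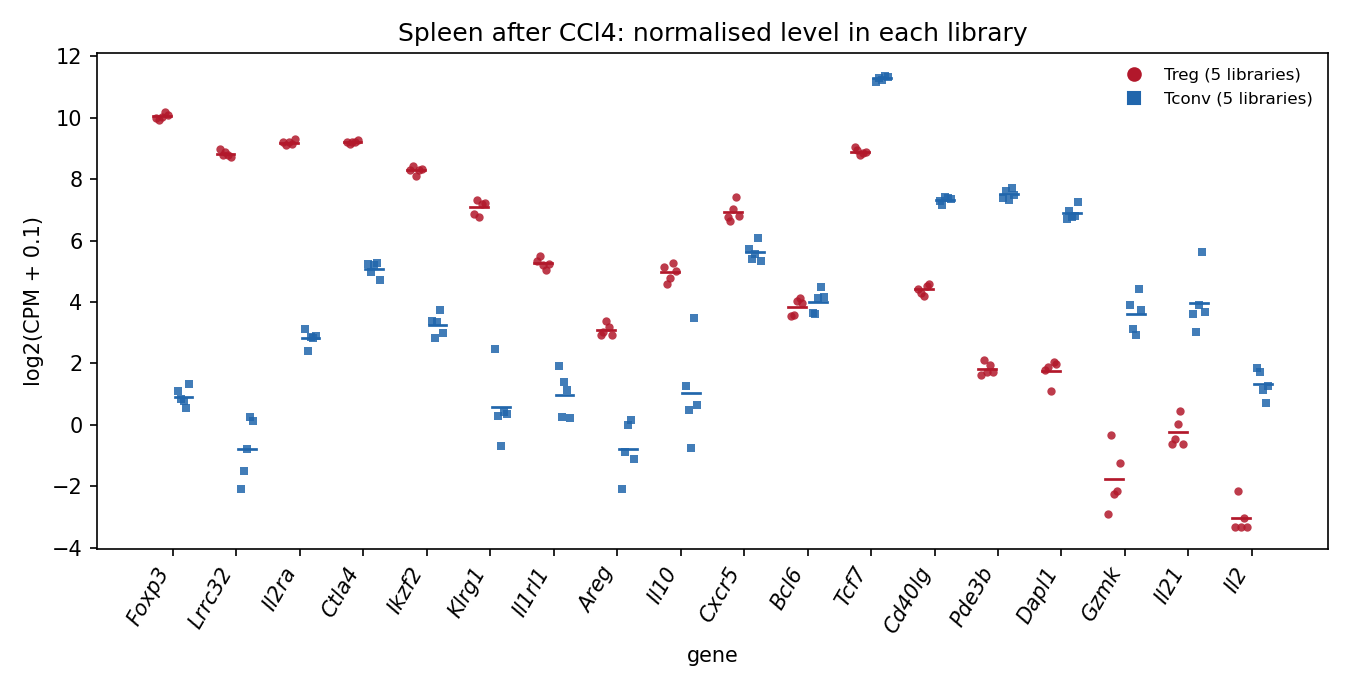
Level of 18 genes in each of the 10 spleen libraries after CCl4, as log2(CPM + 0.1), with Treg as circles, Tconv as squares and the group mean as a line. Foxp3, Lrrc32, Il2ra, Ctla4, Ikzf2 and Klrg1 sit high in all 5 Treg libraries, Tcf7, Cd40lg, Pde3b, Dapl1, Gzmk, Il21 and Il2 in all 5 Tconv libraries, and Bcl6 overlaps.

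All 20 Treg signature genes were called higher in Treg (background 16.8%), and their median log2 fold change was 2.95. For all 20 the library values did not overlap. Lrrc32 encodes GARP, which holds latent TGF-beta at the cell surface. Its Treg libraries 1 to 5 gave 511, 441, 472, 439 and 425 CPM and its Tconv libraries 0.134, 0.254, 0.473, 1.09 and 0.988 CPM. The log2 fold change was 9.67 (SE 0.28, adjusted p = 3.16e-21), slightly larger than that of Foxp3 itself. Il2ra, the CD25 chain of the interleukin 2 receptor, was 593, 548, 586, 563 and 628 CPM in Treg and 8.55, 5.19, 7.12, 7.05 and 7.26 CPM in Tconv, and no Tconv library came near a Treg library. Ctla4, an inhibitory receptor that removes CD80 and CD86 from antigen-presenting cells, was 592 ± 15.2 CPM in Treg against 34.1 ± 5.26 in Tconv, a log2 fold change of 4.12 (SE 0.16, adjusted p = 5.76e-18). The Ikaros family members Ikzf2 (Helios) and Ikzf4 (Eos) were higher by 5.03 and 3.77 on the log2 scale. Within the list, the fold changes ran down to 2.01 for Nt5e, the ecto-enzyme CD73 that makes adenosine, at 404 ± 37.0 CPM against 101 ± 18.1. Entpd1, which encodes CD39 upstream of CD73, was 75.6 ± 10.4 CPM against 8.54 ± 2.91 (log2 3.16, SE 0.24).

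Among suppressive and secreted mediators, 12 of 13 genes tested were higher in Treg and the median log2 fold change was 3.09. Areg, the gene of amphiregulin and the molecule named in the series title, was low in every spleen library. It measured 7.48, 7.99, 10.3, 8.96 and 7.55 CPM in Treg and 0.134, 0.438, 0.896, 1.02 and 0.364 CPM in Tconv, a log2 fold change of 3.93 (SE 0.42, adjusted p = 9.6e-09). The lowest Treg library was above the highest Tconv library. Il10, an anti-inflammatory cytokine, was 35.3, 23.9, 27.5, 38.7 and 32.2 CPM in Treg and 2.30, 1.31, 0.498, 11.1 and 1.46 CPM in Tconv. The groups did not overlap, and Tconv replicate 4 stood above the other 4 Tconv libraries. Fgl2, a secreted fibrinogen-like protein, was 69.5 ± 9.48 against 3.79 ± 2.74 CPM, and Gzmb, the protease granzyme B, was 40.9 ± 6.22 against 4.15 ± 2.53 CPM. Ebi3, a subunit of interleukin 35, was 21.6 ± 2.84 against 2.53 ± 0.398 CPM. Its partner Il12a had no count in any Tconv library and only 0.226 CPM in Treg, at least 14.2-fold higher when 3 counts over the Tconv group are taken as the floor. Tgfb1 differed little, 122 ± 6.52 against 94.8 ± 16.1 CPM (log2 0.37, SE 0.09), and Il18bp was not called (log2 0.09, adjusted p = 0.831).

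Genes of effector and tissue Treg were mostly higher in Treg: 13 of 16 tested, with 2 higher in Tconv and a median of 1.86. Klrg1, a lectin-like receptor of terminally differentiated lymphocytes, was 117, 160, 110, 145 and 151 CPM in Treg and 5.48, 1.13, 0.523, 1.24 and 1.17 CPM in Tconv (log2 6.16, SE 0.49). Il1rl1, the interleukin 33 receptor ST2, was 40.3, 45.1, 37.1, 32.7 and 37.4 CPM in Treg and 3.66, 1.08, 2.51, 2.07 and 1.07 CPM in Tconv (log2 4.22, SE 0.29). Both receptors separated the groups without overlap. Transcription factors of the same list were also higher in Treg, among them Prdm1 (Blimp-1, 103 ± 30.0 against 15.2 ± 2.53 CPM), Pparg (6.46 ± 2.14 against 0.738 ± 0.524 CPM), Ahr (48.7 ± 6.03 against 10.9 ± 0.960 CPM) and Gata3 (280 ± 8.56 against 157 ± 17.2 CPM). The transcriptional regulator Id2 was lower in Treg, 139 ± 10.2 against 268 ± 33.2 CPM, and so was the interleukin 18 receptor chain Il18r1, 16.4 ± 2.39 against 36.7 ± 8.39 CPM.

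Costimulatory receptors followed the same direction in 8 of 12 genes tested, with 1 higher in Tconv and a median of 1.17. The receptors of the TNF receptor family led: Tnfrsf4 (OX40) was 766 ± 100 against 39.7 ± 8.12 CPM (log2 4.27, SE 0.13), and Tnfrsf9 (4-1BB) was 525 ± 61.1 against 27.3 ± 3.62 CPM (log2 4.26, SE 0.16). Cd28, the main costimulatory receptor of T cells, was 291 ± 25.5 in Treg and 297 ± 4.44 CPM in Tconv and was not called (adjusted p = 0.757). Of 14 coinhibitory receptors and ligands tested, 9 were higher in Treg and 1 in Tconv, with a median of 1.02. Tigit was the largest of them at 105 ± 28.9 against 9.11 ± 4.78 CPM (log2 3.54, SE 0.23). Pdcd1, which encodes PD-1, was 156 ± 48.1 against 70.5 ± 30.4 CPM and its library ranges, 120 to 239 and 48.9 to 123 CPM, overlapped. Lair1, an inhibitory receptor for collagen, was the exception that was higher in Tconv, 13.9 ± 2.62 against 4.11 ± 1.54 CPM.

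Chemokine receptors and integrins were higher in Treg for 13 of 25 genes and in Tconv for 4, with a median of 0.46. Itgae (CD103, the integrin chain that binds E-cadherin) showed the largest difference, 201 ± 16.5 against 4.17 ± 1.56 CPM (log2 5.58, SE 0.29). The inflammatory and tissue-homing receptors Ccr8, Ccr6, Ccr2 and Ccr4 were higher in Treg by 4.13, 2.71, 2.36 and 2.30 on the log2 scale. Receptors that guide cells within lymphoid organs were split. Ccr7 was 308 ± 55.8 in Treg and 1110 ± 53.6 CPM in Tconv, and Gpr183 was 115 ± 5.76 and 243 ± 22.3 CPM. The B-cell follicle receptor Cxcr5 was higher in Treg (log2 1.32). Cxcr6, a receptor for CXCL16, was 7.95 ± 1.75 in Treg and 77.5 ± 32 CPM in Tconv (log2 -3.30, SE 0.31). Cytokine receptors were split, with 9 of 23 higher in Treg, 8 higher in Tconv and a median of 0.12. The decoy interleukin 1 receptor Il1r2 was 52.5 ± 23 against 2.69 ± 1.46 CPM. The TGF-beta receptors diverged, since Tgfbr1 was higher in Treg (118 ± 9.99 against 40.1 ± 6.79 CPM) while Tgfbr2 (233 ± 21.5 against 603 ± 42.0 CPM) and Tgfbr3 (8.29 ± 2.37 against 141 ± 25.4 CPM) were higher in Tconv.

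Genes of naive and recirculating T cells were the clearest Tconv group. Of 20 tested, 18 were higher in Tconv (background 16.6%) and 1, the transcriptional regulator Id3, was higher in Treg, with a median of -1.15. Tcf7, which encodes the transcription factor TCF-1, ranged from 437 to 524 CPM in Treg and from 2295 to 2656 CPM in Tconv (log2 -2.39, SE 0.08, adjusted p = 1.48e-19). Lef1 and Satb1, further transcription factors of naive T cells, had log2 fold changes of -1.95 and -1.97. Dapl1, Tdrp and Igfbp4 had log2 fold changes of -5.17, -3.96 and -3.89. The levels of Dapl1 and Igfbp4 were 3.37 ± 0.787 against 120 ± 19.1 CPM and 94.9 ± 13.0 against 1410 ± 158 CPM. Foxo1, which drives several genes of this list, was 661 ± 14.9 and 658 ± 67.5 CPM and was not called. Among activation and memory genes, 13 of 20 were higher in Treg and the other 7 were not called, with a median of 0.83. Cd83 (267 ± 27.8 against 12.2 ± 5.70 CPM) and S100a4 (154 ± 17.4 against 40.0 ± 11.4 CPM) were examples, while the early activation receptor Cd69 was 340 ± 50.8 and 315 ± 45.3 CPM and was not called.

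Helper cytokines and TNF family ligands had the lowest median of the 23 lists other than markers of other cell types, -1.72. Of 19 tested, 12 were higher in Tconv and 4 in Treg. With only genes of at least 5 CPM on average over all libraries, 11 were tested and 6 were higher in Tconv. Il2 was 0.0293 ± 0.0545 CPM in Treg and 2.53 ± 0.823 CPM in Tconv (log2 -6.58, SE 0.84). Cd40lg, the helper ligand for B cells and dendritic cells, ranged from 18.4 to 24.0 CPM in Treg and from 143 to 170 CPM in Tconv (log2 -2.92, SE 0.09, adjusted p = 9.81e-21). Il21 was 0.551, 0.627, 0.920, 1.26 and 0.542 CPM in Treg and 12.0, 8.05, 15, 49.5 and 12.6 CPM in Tconv. Tconv replicate 4 was again the high library, and all 5 Tconv libraries exceeded all Treg libraries. Ifng was 6.53 ± 1.71 against 38.5 ± 9.47 CPM, and Il4, Il17a and Il22 were higher in Tconv but at or under 1.82 CPM in every library. The exceptions higher in Treg were Tnfsf11 (RANKL, 52.3 ± 4.14 against 23.3 ± 5.03 CPM), Tnfsf10 (TRAIL, 34.0 ± 7.35 against 16.1 ± 1.05 CPM), Lta (62.4 ± 7.88 against 29.8 ± 2.27 CPM) and Ltb (1322 ± 73.2 against 1026 ± 77.0 CPM).

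The transcription factors of helper lineages had a median of -0.17, with 5 of 17 higher in Treg and 6 higher in Tconv. The type 1 factors Tbx21 and Eomes were higher in Tconv, 43.0 ± 10.7 against 18.6 ± 4.87 CPM and 12.1 ± 4.52 against 2.98 ± 0.752 CPM. Gata3, the type 2 factor, was higher in Treg. Among 14 follicular helper genes tested, 6 were higher in each direction and the median was 0.07. The B-cell follicle receptor Cxcr5 was higher in Treg, 124 ± 28.6 against 49.9 ± 10.9 CPM (log2 1.32, SE 0.21), whereas Bcl6, the lineage factor, was 14.5 ± 2.70 and 16.3 ± 4.23 CPM and was not called (log2 -0.17, adjusted p = 0.501). Il21, Il4, Ascl2 and Pou2af1 of the same list were higher in Tconv.

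T cell receptor signalling genes were called higher in Tconv for 13 of 25 and higher in Treg for 2, with a median of -0.30. The CD3 chains Cd3d, Cd3e and Cd3g and the zeta chain Cd247 were not called, with log2 values between -0.17 and -0.04. Themis, an adaptor below the receptor, was 27.4 ± 1.55 against 181 ± 11 CPM (log2 -2.72, SE 0.07, adjusted p = 1.33e-22). Cd4 itself was 656 ± 27.3 in Treg and 1009 ± 73.1 CPM in Tconv (log2 -0.62, SE 0.06). The phosphatase-like Ubash3b and the inhibitory receptor Cd5 were the 2 genes higher in Treg (4 genes with the 10 libraries fitted alone). In the cAMP and adenosine list, 7 of 15 genes were higher in Treg and 5 in Tconv, with a median of 0.09. Pde3b, a phosphodiesterase that degrades cAMP and a gene that Foxp3 is known to repress, ranged from 2.95 to 4.26 CPM in Treg and from 160 to 211 CPM in Tconv (log2 -5.73, SE 0.24). The phosphodiesterases Pde7a, Pde4d and Pde4b were also lower in Treg, while Pde4a and Pde2a were higher. The adenosine receptor Adora2a and the prostaglandin E2 receptors Ptger2 and Ptger4 were higher in Treg by 1.10, 1.80 and 0.78 on the log2 scale.

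The share of a gene's TPM (the transcript abundance unit that corrects for length) that each annotated transcript held was compared for fixed genes of T cell identity. Of 45 transcripts of 13 genes tested, 16 transcripts of 8 genes differed (exact permutation test over the 252 assignments of 5 against 5, adjusted p between 0.0397 and 0.0446). The smallest p the test can give is 0.00794. Ptprc encodes CD45, a receptor phosphatase whose variable exons are spliced in or out as T cells differentiate. Its 3 main transcript models differ between chr1:138115619-138126326 on the minus strand of GRCm38. The sequences below are those of this stretch, read from the GENCODE transcripts 5′ to 3′, with the 147-base exon found only in Ptprc-213 (chr1:138120020-138120166) in capitals.
Ptprc-204: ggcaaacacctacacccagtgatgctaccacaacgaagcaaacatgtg
Ptprc-203: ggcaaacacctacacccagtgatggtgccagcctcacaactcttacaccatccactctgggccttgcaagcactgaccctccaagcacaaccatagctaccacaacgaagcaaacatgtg
Ptprc-213: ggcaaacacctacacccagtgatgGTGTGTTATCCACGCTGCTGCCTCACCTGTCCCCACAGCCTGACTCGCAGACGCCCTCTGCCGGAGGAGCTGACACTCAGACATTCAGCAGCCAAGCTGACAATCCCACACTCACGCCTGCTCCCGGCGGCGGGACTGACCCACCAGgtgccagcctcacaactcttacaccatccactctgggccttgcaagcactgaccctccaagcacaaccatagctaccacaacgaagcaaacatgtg

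Ptprc-204 lacks both variable exons of that stretch, Ptprc-203 has the 72-base exon (chr1:138116954-138117025), and Ptprc-213 has both exons. Ptprc-204, the shortest form here, held 20.1, 17.2, 19.3, 18.5 and 18.6% of Ptprc TPM in Treg and 8.73, 6.81, 7.79, 7.27 and 6.70% in Tconv. Ptprc-213, with the additional exon, held 8.97 ± 1.83% in Treg and 30.8 ± 3.47% in Tconv. Neither transcript overlapped between the groups. Ptprc-203 held 60.5 ± 2.19% and 49.3 ± 2.31%. Ptprc-213 is a partial model of 8 exons and 702 bases against 30 exons and 4702 bases in Ptprc-203, so its share depends on length: by shares of estimated counts the difference of Ptprc-213 was -3.62 points, that of Ptprc-203 turned to -2.86 points, and that of Ptprc-204 was 10.5 points. By shares of estimated counts 0 of the 16 transcripts passed an adjusted p of 0.05 in the exact permutation test, and 15 passed an unadjusted p of 0.05.

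Lck, the kinase that starts T cell receptor signalling, is transcribed in the mouse from a proximal and a distal promoter. The starts of Lck-201 and Lck-202 lie 15250 bases apart on chromosome 4. Lck-201, from the start nearer the coding exons, held 2.09, 2.37, 1.84, 1.78 and 1.53% of Lck TPM in Treg and 10.2, 10.4, 9.22, 10.4 and 10.3% in Tconv. Lck-202 held 85.2 ± 2.27% and 72.9 ± 1.48%. The proximal-start transcript was thus the smaller share in both groups and was lower in every Treg library than in any Tconv library. Icos-202, which carries an additional last exon, held 62.7% of Icos TPM in Treg and 54.3% in Tconv, and Satb1-203 held 60% and 68.6%.

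**Figure D2:**
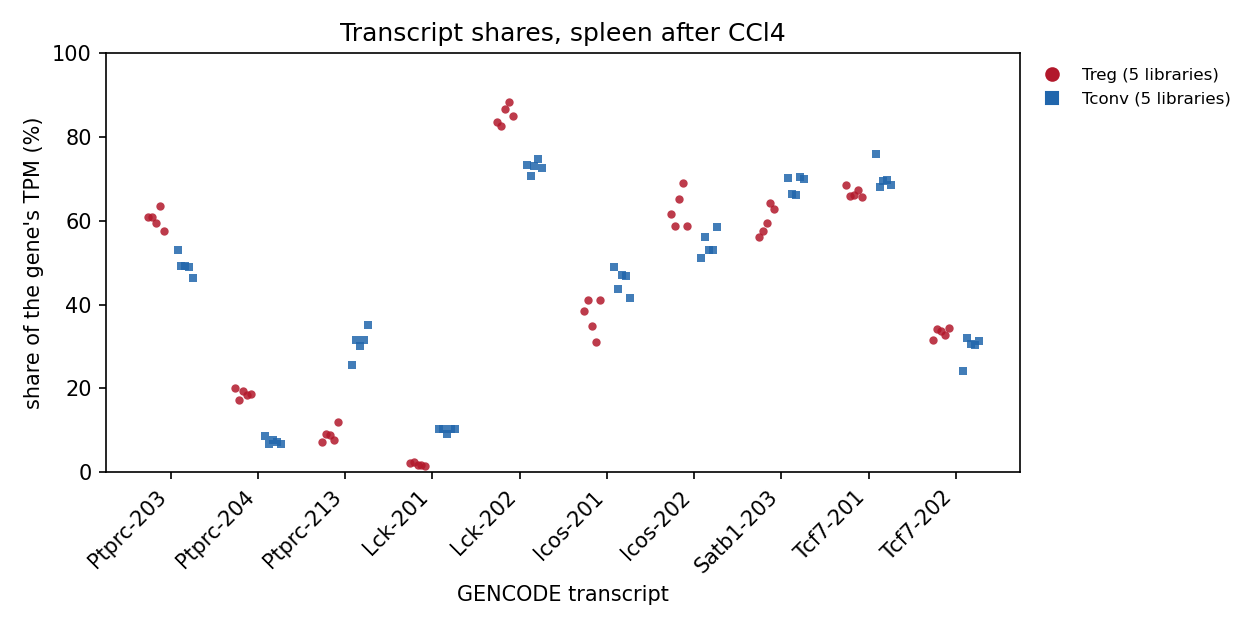
Share of each gene's TPM (%) held by 10 GENCODE transcripts in the 5 Treg libraries (circles) and the 5 Tconv libraries (squares). Ptprc-204 and Lck-202 sit higher in Treg, and Ptprc-213 and Lck-201 sit higher in Tconv, with no overlap between the groups.

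Of 18 immediate early genes, 3 were higher in Treg and 2 higher in Tconv, where 16.8% and 16.6% of all genes were, and the median was 0.16. Without Treg replicate 2 or 3 or Tconv replicate 5, the 2 genes higher in Tconv lost their call. Dusp1, a phosphatase of MAP kinases, was 1608 ± 155 in Treg and 845 ± 54.3 CPM in Tconv without overlap, yet was not called (log2 0.93, SE 0.54, adjusted p = 0.196). The SE comes from all 32 libraries, among them spleen control replicates 2 and 3, which had low Fos in earlier results of these data. When the 10 libraries were fitted alone, the same difference was 0.96 (SE 0.07, adjusted p = 1.72e-07), and 7 genes of the list were called higher in Treg. NF-kB genes were higher in Treg for 11 of 15, and the other 4 were not called (14 higher with the 10 libraries fitted alone). Their median was 0.53. The transcription factor subunits Rel and Nfkb2 were 86.9 ± 8.64 against 36.9 ± 3.30 CPM and 198 ± 16.5 against 107 ± 7.46 CPM, and the inhibitor Nfkbia was 1612 against 779 CPM. Rela, the most widely expressed subunit, was 284 ± 15.4 and 287 ± 16.1 CPM and was not called. Interferon response genes had a median of 0.00, with 3 of 21 higher in Treg and 4 in Tconv, shares near those of all genes. With the 10 libraries fitted alone, 7 of them were called higher in Treg and 4 in Tconv. The oligoadenylate synthetase family split, with Oas1a higher in Treg (log2 1.11, SE 0.15) and Oas2 and Oasl2 higher in Tconv (log2 -2.28, SE 0.27, and -1.42, SE 0.22).

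Cell cycle genes were higher in Treg for 19 of 24 tested, the other 5 were not called, and the median was 1.36. Mki67, a marker of cycling cells, was 38 ± 7.44 against 13.6 ± 5.48 CPM (log2 1.5, SE 0.26), and the mitotic cyclin Ccnb2 was 30.5 ± 2.97 against 10.5 ± 3.59 CPM. The replication factors Pcna, Mcm2, Mcm3 and Mcm7 were not called, with log2 values of -0.14, -0.22, 0.27 and 0.16. Their relative Mcm5 was called higher in Treg (log2 0.42), a call lost in several alternatives. With the 10 libraries fitted alone Mcm3 was called higher in Treg, and with the replicate block Mcm2 was called higher in Tconv. In bulk samples, more cells expressing a gene and more RNA of that gene per cell cannot be told apart, here and in every other comparison.

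Metabolic genes were called in both directions. Of 19 glycolysis and mTOR genes, 7 were higher in Treg and 2 in Tconv, with a median of 0.13. The lactate exporter Slc16a3 (20.6 ± 7.09 against 2.51 ± 0.754 CPM), the glucose transporter Slc2a3 (257 ± 18.5 against 81.9 ± 8.25 CPM) and the hypoxia factor Hif1a (567 ± 69.5 against 243 ± 39.4 CPM) led, while Slc7a5, a transporter of large amino acids, was lower in Treg (62.6 ± 10.7 against 86.5 ± 5.68 CPM). Of 19 oxidative phosphorylation genes, 2 were called in each direction, against 33.4% of all genes in either direction, and the median was -0.05 (without Tconv replicate 4, the 2 higher in Treg lost their call and 4 were higher in Tconv). Of 25 cholesterol and fatty acid genes, 3 were higher in Treg and 7 in Tconv, where 16.8% and 16.6% of all genes were. Their median was -0.03, and over the alternatives 2 to 5 were higher in Treg and 5 to 8 in Tconv. Plin2, a lipid droplet protein, was higher in Treg (31.9 ± 6.06 against 13.6 ± 3.18 CPM), and the squalene enzyme Sqle and the fatty acid synthase Fasn were lower in Treg (log2 -0.57 and -0.48).

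Apoptosis and survival genes were higher in Treg for 11 of 22 and higher in Tconv for 2, with a median of 0.37. The main anti-apoptotic members went in opposite directions. Bcl2 was 157 ± 22.3 in Treg and 318 ± 51.1 CPM in Tconv, and Bcl2l1, which encodes Bcl-xL, was 93.2 ± 3.28 and 33.9 ± 4.46 CPM. Mcl1, another anti-apoptotic member, was 802 ± 51.8 and 835 ± 51.4 CPM and was not called. The pro-apoptotic Pmaip1 was higher in Treg by 2.04 on the log2 scale. Partners of Foxp3 and chromatin regulators had a median of -0.01, with 5 of 19 higher in each direction (3 higher in Treg without Treg replicate 4). Ikzf1 (Ikaros) was lower in Treg (146 ± 8.09 against 330 ± 56.3 CPM) and its relative Ikzf3 (Aiolos) was higher (213 ± 28.2 against 81.6 ± 11.2 CPM). Hdac9, a histone deacetylase, was 12.6 ± 3.27 against 1.74 ± 0.952 CPM.

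**Figure D3:**
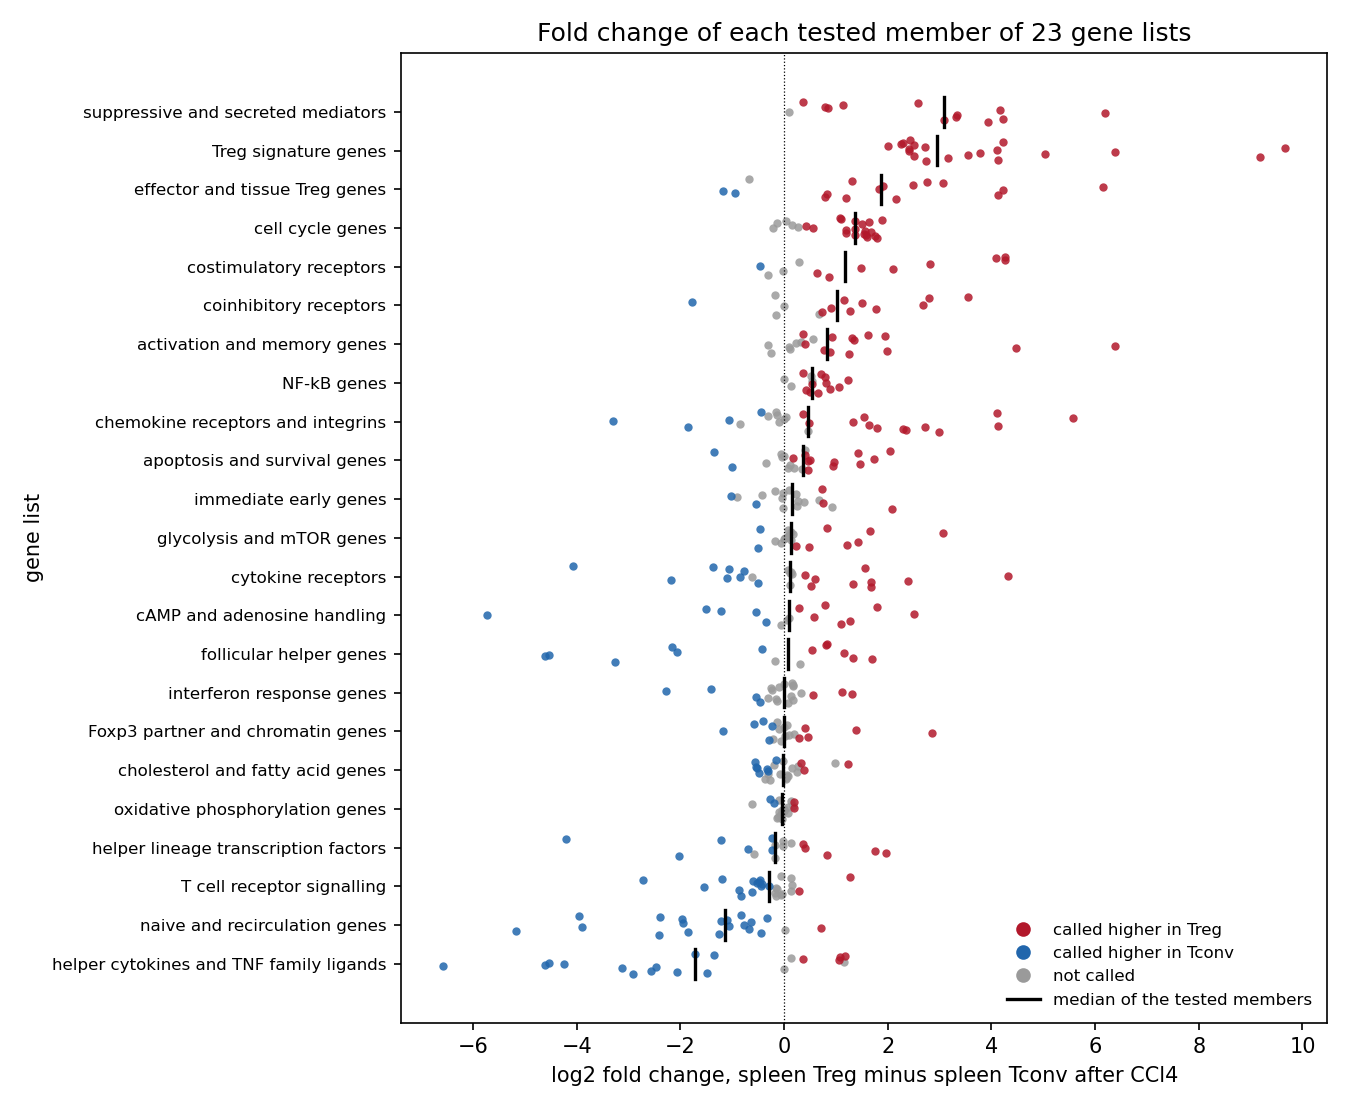
Fitted log2 fold change, Treg over Tconv, of every tested member of 23 gene lists, with a bar at each list's median. Medians run from -1.72 for helper cytokines and TNF family ligands to 3.09 for suppressive and secreted mediators.

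Beyond the lists, the genes with the largest difference among those of at least 5 CPM without overlap held several that are not part of a Treg signature. Atp6v0d2, a subunit of the vacuolar proton pump, was 35.3 to 53.2 CPM in Treg and at most 0.448 CPM in Tconv (log2 7.80, SE 0.55). Gbp2b, an interferon-inducible GTPase, was 31.2 to 48.3 CPM in Treg and at most 0.775 CPM in Tconv (log2 7.46, SE 0.59). Sdc4, a heparan sulfate proteoglycan, was 45.6 to 69.7 CPM in Treg and 0.0520 to 0.971 CPM in Tconv. Dscam, Cep112, Noxa1, Cxcl2, Slc7a10 and Bco2 completed the Treg side beside Ltf and S100a8, which are described with the neutrophil markers. On the Tconv side, Pdlim4, a LIM domain protein, showed the largest difference of this ranking. It was 0.44 to 1.19 CPM in Treg and 85.2 to 138 CPM in Tconv (log2 -6.99, SE 0.31, adjusted p = 6.15e-17). Vipr1, the receptor of vasoactive intestinal peptide, was 3.48 to 4.47 against 193 to 222 CPM (log2 -5.68, SE 0.34). Gzmk, granzyme K, was 0.0324 to 0.690 against 7.49 to 21.1 CPM (log2 -5.89, SE 0.55). Ggt5, Atp8b4, Lrrc75b, Lypd6b, Adgrg5, Qpct, Klrd1, Il1rl2 and Mctp2 were the others, with log2 values between -5.94 and -4.31.

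With the same gene classes left out, the most abundant called genes differed by much less. By TPM, B2m, the light chain of MHC class I, was 7996 in Treg and 5917 in Tconv (log2 fold change of CPM 0.31, SE 0.08), and the heavy chain genes H2-K1 and H2-D1 were higher by 0.27 and 0.30, although near-identical MHC genes can share reads and their split is uncertain. Ly6e, a surface protein induced by interferon, was 4747 against 2351 TPM (log2 0.95, SE 0.06). Shisa5, Ifi27l2a, Ltb, S100a10, Nfkbia and Itm2b made up the rest on the Treg side. Tmsb4x, an actin-binding peptide, was the most abundant of the remaining called genes on the Tconv side. It was 12901 TPM in Treg and 15272 TPM in Tconv (log2 -0.37, SE 0.09), with library values that overlapped. Ms4a4b, a membrane protein of T cells, was 1550 against 2573 TPM, and Eef1a1, the translation elongation factor, was 2574 against 3499 TPM. Olfr1033, annotated as an olfactory receptor gene, was 1311 against 5539 TPM, and since the strand setting is not given, reads of an overlapping gene cannot be told apart from its own.

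Markers of other cell types were summed in each library. B cell markers came to 41.6 to 68.7 CPM in Treg and 19.5 to 27.8 CPM in Tconv, and 6 of 12 were called higher in Treg (3 without Treg replicate 2). The receptor subunit Cd79b made a large part of the Treg sum at 22.5 ± 4.52 against 2.31 ± 0.685 CPM, and the factor Pax5 was at or near 0 in both groups (0.0653 ± 0.0679 and 0.0727 ± 0.163 CPM). Macrophage and monocyte markers came to 193 to 294 CPM in Treg and 58.0 to 105 CPM in Tconv, with 9 of 16 higher in Treg. The phagocyte oxidase gene Cybb made the largest part at 88.3 ± 19.9 against 14.4 ± 4.26 CPM. C1qb and Spic were also called higher in Treg (log2 1.27 and 1.00), calls lost when some single libraries were left out. Adgre1 (F4/80) was 4.03 ± 1.22 and 2.05 ± 1.58 CPM and was not called, and none of the 16 was higher in Tconv. Dendritic cell markers came to 371 to 485 CPM in Treg and 105 to 124 CPM in Tconv, with 7 of 12 higher in Treg. Most of the Treg sum was Cd74, the invariant chain of MHC class II, at 279 ± 39.2 against 29.1 ± 3.25 CPM. Itgax (CD11c), Flt3 and Clec9a, which define dendritic cells, were at or under 1.13 CPM in every library. Siglech of the same list was called higher in Treg (log2 1.75), a call lost in several alternatives. The part of such cells in any result was not tested.

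Neutrophil markers varied widely between Treg libraries, and 8 of 10 were called higher in Treg. With limma-voom 4 of 10 were called, and with the 10 libraries fitted alone 4 markers passed the filter on low counts and all 4 were called. Their sum was 1.56, 98.8, 35.8, 105 and 41.9 CPM in Treg replicates 1 to 5 and 0.199 to 1.09 CPM in Tconv. Treg replicate 1 was close to the Tconv libraries and the other 4 Treg libraries were not. Ltf, the granule protein lactoferrin, was 0.486, 14.8, 6.40, 18.5 and 7.39 CPM in Treg and had no count in Tconv, at least 598-fold higher on average with 3 counts over the Tconv group as the floor. S100a8 moved with it at 0.308, 12.3, 4.4, 14.5 and 5.83 CPM in Treg and at most 0.182 CPM in Tconv. The part of these markers in other results was not tested. Markers of NK cells were lower in Treg (3 of 6 higher in Tconv and 1, Tyrobp, in Treg, a call lost without Treg replicate 2 or 3 or Tconv replicate 1, 2, 3 or 5), led by the cytotoxic protein Prf1 at 20 ± 2.14 against 69.6 ± 6.98 CPM. Of 10 NKT-like markers, 6 were higher in Tconv, including Zbtb16 (PLZF) at 0.140 ± 0.131 against 2.59 ± 0.881 CPM. The 2 higher in Treg, Il2rb and Slamf1, also stand in the Treg signature and costimulatory lists. Of 6 gamma delta T cell markers, 2 were higher in Tconv, with the constant segment Trdc at 5.50 ± 0.686 against 9.62 ± 0.608 CPM. In plasma cell markers 3 of 5 were higher in Treg. In stromal and endothelial markers 2 of 9 were higher in Treg and 1 in Tconv. The sum of this list went the other way, 146 to 186 CPM in Treg and 232 to 290 CPM in Tconv. Its 2 calls higher in Treg, Col1a1 and Col1a2, were each lost in some alternatives. The 2 CD8 T cell, 7 erythroid and 3 platelet markers tested were not called. With the 10 libraries fitted alone, 4 erythroid and 14 macrophage markers were called higher in Treg.

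**Figure D4:**
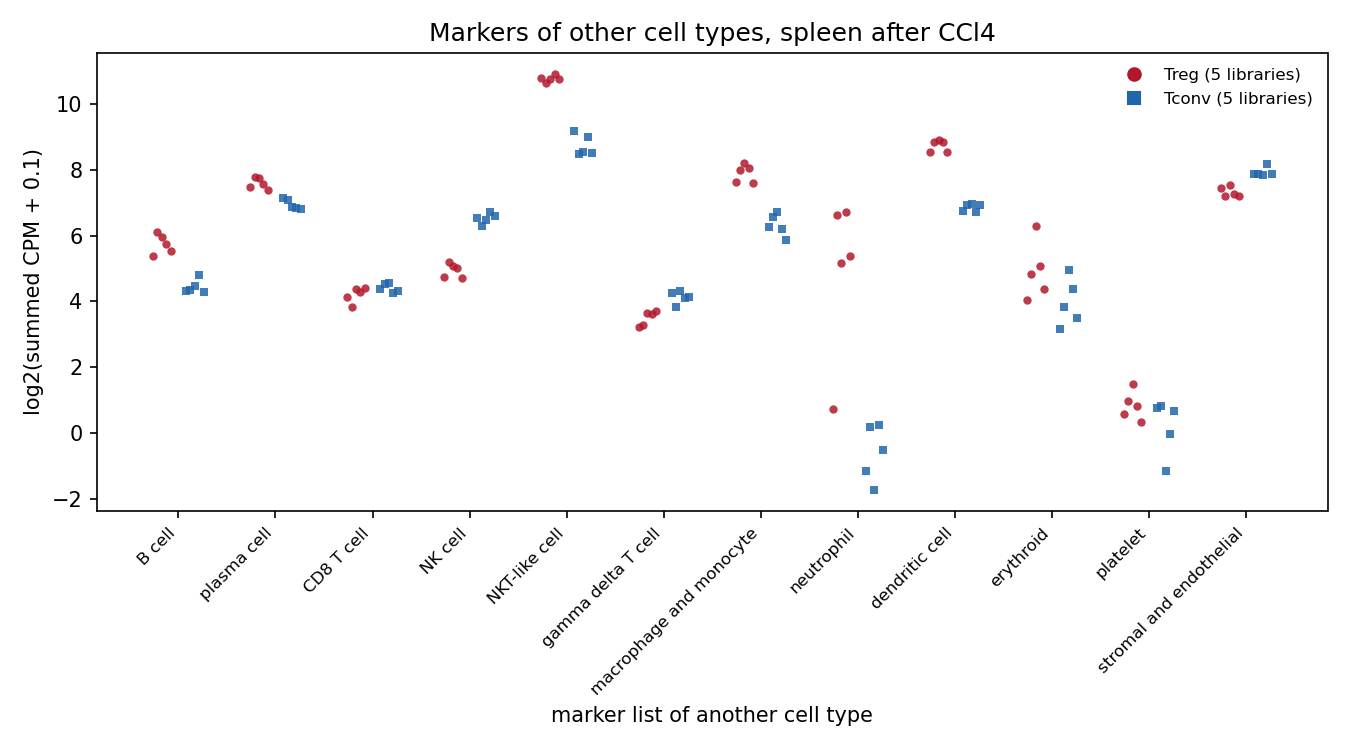
Summed level of 12 lists of markers of other cell types in each library, as log2(summed CPM + 0.1), for 5 Treg libraries (circles) and 5 Tconv libraries (squares). Neutrophil markers spread from 1.56 to 105 CPM among Treg libraries, while the macrophage and dendritic cell lists sit higher in all 5 Treg libraries.

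The Treg to Tconv difference was next compared between CCl4 and control spleen, to ask whether CCl4 changed what separates the cell types. By edgeR's quasi-likelihood test 0 of 17159 genes were called (0%), with 734 at an unadjusted p under 0.05 and a smallest adjusted p of 0.136. DESeq2 called 15 and limma-voom 0. Only 3 control libraries per cell type entered. Of these, spleen control replicates 2 and 3 were found to have low Fos in earlier results of these data. For Areg and Il10 in control Treg they are the 2 lower libraries. Klrg1 was 137 ± 21.8 in CCl4 Treg and 72.0 ± 20 CPM in control Treg, and 1.91 ± 2.02 and 1.41 ± 0.544 CPM in Tconv, a difference of differences of 0.48 (SE 0.75) on the log2 scale. Areg was 5.71, 1.89 and 1.24 CPM in control Treg, all under the lowest CCl4 Treg library at 7.48 CPM, and 0.531, 0.108 and 0 CPM in control Tconv. Its difference of differences was 0.35 (SE 0.86). Il10 was 17, 4.38 and 4.91 CPM in control Treg, also under every CCl4 Treg library, with a difference of differences of -0.17 (SE 1.05). Ccr8 was 113 ± 23.3 in CCl4 Treg and 53.1 ± 14.6 CPM in control Treg (difference of differences 0.67, SE 0.33). For Foxp3 the difference of differences was 0.69 (SE 0.24, unadjusted p = 0.00708), with control Treg at 1057 ± 125 CPM and control Tconv at 2.89 ± 0.470 CPM. No test of CCl4 within Treg alone is given here, and the lack of a call does not show that the differences were alike.

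The same difference was compared between spleen and liver after CCl4. Of 17159 genes, the Treg minus Tconv log2 difference was higher in spleen for 1560 (9.09%) and lower in spleen for 927 (5.4%). Naive and recirculation genes were called for 15 of 20, all with the difference higher in spleen, that is, with Treg less far below Tconv in spleen. Tcf7 was 476 ± 33.5 against 2498 ± 142 CPM in spleen and 77.0 ± 8.0 against 1557 ± 200 CPM in liver, a difference of 1.95 (SE 0.11, adjusted p = 3.07e-13). Evl, an actin regulator, was 232 ± 16.1 against 376 ± 20 CPM in spleen and 29.4 ± 1.38 against 227 ± 31.3 CPM in liver (difference 2.25, SE 0.11). Lta, the TNF family ligand lymphotoxin alpha, was higher in Treg in spleen and lower in Treg in liver, at 6.95 ± 1.45 against 21.9 ± 1.83 CPM there (difference 2.72, SE 0.16). Ms4a4b, Arid5a, Cd96, Tubb2a and Nod1 completed the 8 genes of smallest adjusted p in that direction, with the same gene classes left out. The differences of these genes lay between 1.72 and 3.04. Cd96 and Tubb2a were not called between the cell types in spleen.

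Among genes with a lower difference in spleen, Pcyt1a, an enzyme of phosphatidylcholine synthesis, was 25.7 to 34.7 CPM in spleen Treg and 284 to 522 CPM in liver Treg, while Tconv of both tissues lay between 14.7 and 22.0 CPM (difference -3.91, SE 0.21, adjusted p = 1.75e-13). Tent5a, a poly(A) polymerase, was 44.0 ± 4.50 and 451 ± 66.9 CPM in spleen and liver Treg and 35.8 ± 4.93 and 44.5 ± 5.59 CPM in Tconv (difference -3.04, SE 0.17). For both genes the spleen Treg libraries lay nearer to Tconv than the liver Treg libraries did. For Pcyt1a the spleen Treg libraries were still above all Tconv libraries without overlap (log2 0.71 in spleen). Chd7, Pqlc1, Rab20, Nrros, Tpd52 and Faim were the others, with differences between -2.19 and -1.16. Of the Treg signature genes 11 of 20 had a higher and 1 a lower difference in spleen. Il2ra separated the cell types more in spleen (difference 1.69, SE 0.28), with liver Tconv at 25.4 ± 12.8 CPM against 7.03 ± 1.2 CPM in spleen Tconv. The 1 lower member was Foxp3 itself (difference -0.89, SE 0.24, adjusted p = 0.0106), with Treg at 1061 ± 72.5 CPM in spleen and 1050 ± 55.5 CPM in liver and Tconv at 1.81 ± 0.408 and 0.976 ± 0.245 CPM.

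The mean levels of Areg and Il10 were lower in spleen than in liver in both cell types. Areg was 8.45 ± 1.18 against 0.570 ± 0.373 CPM in spleen and 132 ± 24.7 against 14.5 ± 3.12 CPM in liver, and the difference of differences, 0.75 (SE 0.53), was not called (adjusted p = 0.402). Il10 was 31.5 ± 5.93 against 3.34 ± 4.4 CPM in spleen and 221 ± 40.5 against 26.6 ± 25.8 CPM in liver (difference 0.28, SE 0.77, adjusted p = 0.870). Il1rl1 was 38.5 ± 4.57 CPM in spleen Treg and 486 ± 150 CPM in liver Treg, with Tconv at 2.08 ± 1.08 and 13.2 ± 3.76 CPM (difference -0.99, SE 0.38, adjusted p = 0.0777). These values show a higher mean level in liver in both cell types, with no test of tissue within a cell type given here. For Il10 in Tconv the SD was larger than the mean in spleen and close to the mean in liver.

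**Figure D5:**
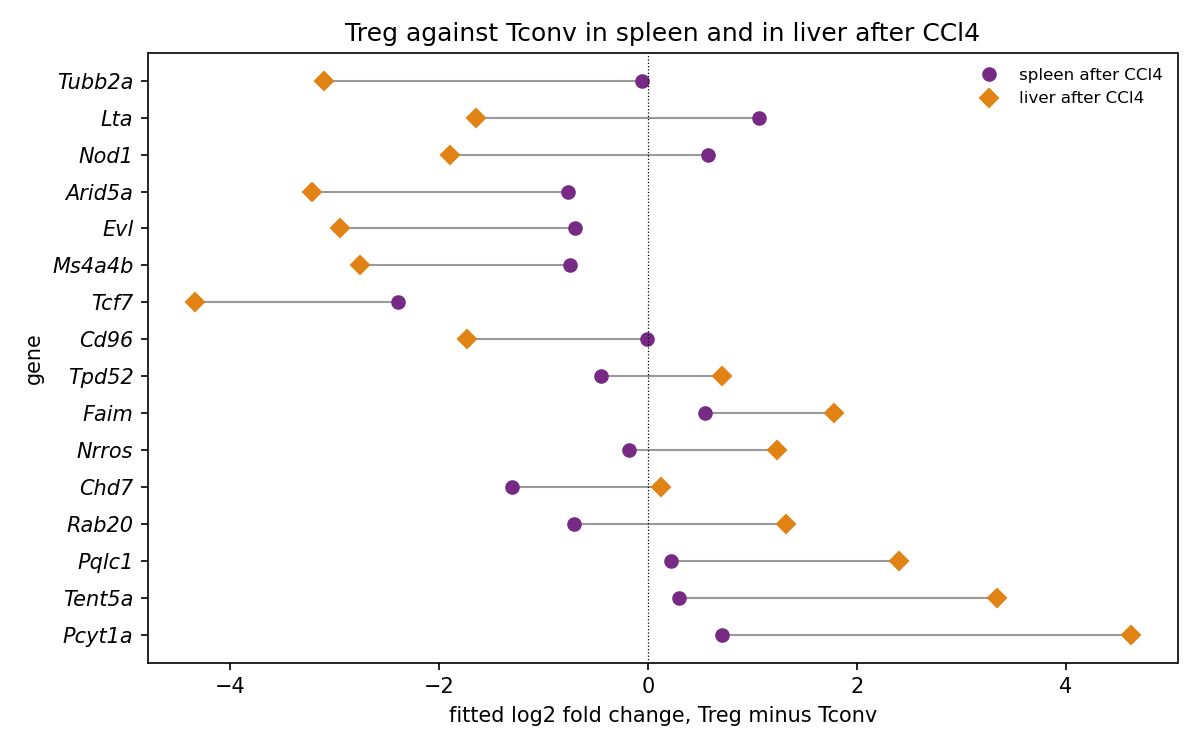
Fitted log2 difference, Treg minus Tconv, in spleen (circles) and liver (diamonds) after CCl4 for 16 genes. They are the 8 of smallest adjusted p in each direction of the difference between tissues, with the gene classes named in the text left out. For Evl, Tcf7 and Lta the spleen value is above the liver value, and for Pcyt1a and Tent5a the liver value is above the spleen value.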

How the data were processed

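RNA of sorted cells was extracted with a Qiagen kit, amplified with the Clontech Ultra Low kit and made into libraries with NexteraXT, per the labels' protocols. The deposited files give an estimated count and a TPM value for each of 118489 transcripts, per the file headers. The submitters' processing notes name bcl2fastq 2.19, kallisto 0.44.0, DESeq2 and GRCm38.p6, while neither an annotation release nor the strandedness of counting is given in the sources used here. Transcripts were summed to 35968 genes through GENCODE identifiers (98.5% of transcripts matched, and the others held 0.779 to 0.822% of the counts), so a gene's overlap with its antisense partner or a near-identical copy is not resolved.

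Summed estimated counts were rounded to whole numbers and tested with edgeR 4.0.16 in R 4.3.3: filterByExpr (17159 genes), TMM scaling, 1 quasi-likelihood fit of all 32 libraries in 8 groups (24 residual degrees of freedom), contrasts between groups, and Benjamini-Hochberg adjustment at 0.05 over all genes. The fit was tested on simulated data that gave every gene the same spread, which does not cover genes of unequal spread. limma 3.58.1 (voom), DESeq2 1.42.0, other filters and scaling, a replicate block and leaving out each library were the alternatives. Transcript shares were shares of a gene's deposited TPM, tested by 2-sided exact permutation and adjusted over the 45 transcripts. Tables and figures were made in Python 3.11.15 with pandas 2.3.3, numpy 2.4.6 and matplotlib 3.10.9.

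The genes named were the 15 largest differences in each direction with at least 5 CPM and no overlap, the 5 list members of smallest adjusted p and further members given with their values, the 10 most abundant called genes in each direction, the 8 of smallest adjusted p for each difference of differences, and 13 fixed genes. The comparison and the 23 lists (422 distinct genes, 421 in the files) were chosen with earlier results of these data known. A summary of promoter sequences is void, because the RefSeq promoter table held 70.6% of the genes tested, under the 80% needed. Values of a few genes that enter the counts are not reported here.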

Additional observations from a re-analysis of the deposited data

Results flagged for a closer look

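In 346 groups of 5 library values of named genes, 29 (8.38%) had a highest or lowest library far from the other 4 by Dixon's 95% limit, where chance gives about 1 in 20. Tconv replicate 4 held 9 of them and Tconv replicate 1 held 7, and Treg replicate 3 held none. Without Tconv replicate 4 the comparison called 5473 genes, and without Treg replicate 4, which held 5, it called 5260.

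In Tconv replicate 4 the high values were Il21 at 49.5 CPM, Il10 at 11.1, Tigit at 17.3, Noxa1 at 0.291, Nfkb2 at 120, Slc16a3 at 3.82, Hif1a at 311 and Ikzf1 at 429 CPM, and Tmsb4x was low at 4627 CPM. In Tconv replicate 1, Klrg1 was high at 5.48 CPM, H2-K1 at 5308, Ly6e at 1541, S100a4 at 60, Hopx at 45.9 and Tpi1 at 106 CPM, and Tent5a was low at 27.3 CPM. The other Tconv libraries gave Il17ra low at 465 CPM in replicate 3, and Klrd1 at 8.95 and Dscam at 0.0260 CPM in replicate 5. In Treg replicate 4, Penk was 143 CPM, Icos 545, Egr2 44.3, Egr1 290 and Tpi1 185 CPM. Treg replicate 1 gave Dgka at 1010 CPM, replicate 2 gave Il2 at 0.125 CPM and a low Tnfsf11 at 45 CPM, and replicate 5 gave a low Ccna2 at 26.3 CPM.

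The Treg minus Tconv difference itself differed between spleen and liver after CCl4, by the test of the difference of differences in edgeR's fit. On the log2 scale, spleen minus liver, it was 3.04 for Tubb2a, 2.72 for Lta, 2.47 for Nod1, 2.45 for Arid5a, 2.25 for Evl, 2.01 for Ms4a4b, 1.95 for Tcf7, 1.72 for Cd96, 1.69 for Il2ra, 1.5 for Ctla4, 1.09 for Cxcr5 and 0.59 for Cd40lg. It was -3.91 for Pcyt1a, -3.04 for Tent5a, -2.19 for Pqlc1, -2.03 for Rab20, -1.42 for Chd7, -1.41 for Nrros, -1.24 for Faim, -1.16 for Tpd52 and -0.89 for Foxp3.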

How the results depend on the processing

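Between Treg and Tconv, 5731 genes were called, 5133 to 5473 with 1 library left out and 4346 to 5985 under the other alternatives. The labels do not say what a replicate number marks. Same-numbered libraries had correlations of deviations from 0.066 to 0.375 after CCl4 and from 0.207 to 0.48 in controls. Each library correlated best with its own number, a hint from the data of a pairing. The labels name no pairing and 1 pair was near 0, so the main tests are unpaired, although a pairing may exist. With the replicate block, 5849 genes were called (5985 with the 10 libraries alone). Of 557 genes followed through 19 alternatives, 435 stayed called or stayed not called in each alternative that tested them. No gene changed direction where it was called in the main fit or in the alternative. Changes of sign without a call in either were not counted. For CCl4 minus control, 0 genes were called, 15 with DESeq2, 1 with the spleen libraries alone, 1 with either replicate block, and 0 to 2 with 1 library left out (2 without Tconv control replicate 1, 1 without Tconv control replicate 2). For spleen minus liver the counts were 2241 to 2619 with 1 library left out and 2142 to 2871 otherwise. The 16 transcripts called by TPM share became 0 by shares of estimated counts, where Ptprc-203 turned to -2.86 points. With 1 library left out, 0 to 12 were called, and 0 without Treg replicate 2 or 3 or Tconv replicate 1, 3 or 5. The level of Il2 in Treg and of each neutrophil marker in Tconv rests on few counts.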
